A study of Mus musculus with 12 samples.

Results

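Cells handle zinc with 3 groups of proteins, and 9 mouse genes from them are described here: the importers Slc39a4, Slc39a6, Slc39a10 and Slc39a14, the exporters Slc30a1 and Slc30a4, the metallothioneins Mt1 and Mt2, and Mtf1, which encodes the zinc-sensing transcription factor of the system. They are 9 of 37163 genes on the array and 9 of the 22751 genes that could be tested. A gene here is a mouse symbol or, where a probe's name matched no RefSeq symbol, that systematic name itself. Of the tested genes 13140 had a symbol. Every share of all genes below is taken over symbols and unmatched names alike. The genes were chosen by name, with earlier results of the same arrays known, so their differences are given as a description and support nothing by themselves. Every array probe whose RefSeq accession belongs to one of them was read: 11 probes, of which 10 passed the filter on dim probes.

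ZIP proteins (the SLC39 family) carry zinc into the cytosol from outside or from vesicles, and ZnT proteins (the SLC30 family) carry it out or into vesicles. Metallothioneins are small cysteine-rich proteins that bind zinc and copper in the cytosol. MTF1 binds metal response elements in DNA when zinc rises and switches on Mt1, Mt2 and Slc30a1. BACH2 is a repressor of B cells that pairs with small MAF proteins and binds DNA sites of the kind that NRF2 also uses.

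The study compared follicular B cells from the spleen of C57BL/6J mice, labelled male, in 4 groups of 3 arrays each. WT and Bach2-/- cells were taken either unstimulated (0 h) or after a 24 h culture in which anti-IgM Fab′ at 10 µg/mL bound their B cell receptors. No 24 h culture without anti-IgM is among the samples, so the antibody and the time in culture cannot be told apart. Stimulation below stands for this whole step from 0 h to 24 h. The labels do not say whether the replicates came from separate mice, so the error behind each p-value is the scatter of these arrays and could be technical; the genotype is given as Bach2-/- with no further detail of the allele. RNA was read on 1-colour Agilent arrays, and a level here is the log2 of a probe's signal over the 75th percentile of its own array, so that 0 is a signal equal to that percentile. Levels of different probes are not compared with each other.

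The labels held for the deleted gene but not for every array. The reported Bach2 probe was lower in Bach2-/- cells by 2.56 ± 0.29 (difference of -2.56 ± 0.29, SE, adjusted p = 0.00171) at 0 h and by 3.76 (-3.76 ± 0.29, adjusted p = 4.43e-05) at 24 h, in limma's fit of the 4 groups with 3 arrays each. This probe was still well above background on every Bach2-/- array. It changed in those cells by -1.35 ± 0.29 from 0 h to 24 h (adjusted p = 0.0088, limma). A second Bach2 probe was well above background on the WT arrays alone. The B cell markers (6 of 6) and the follicular markers (4 of 4) were well above background on all 12 arrays. From 0 h to 24 h 5 of 6 B cell markers passed lower in WT cells and 6 of 6 in Bach2-/- cells. Between genotypes 0 of 6 passed at either time. With the replicate number as a block 3 were lower in Bach2-/- cells at 24 h. The summed linear signal of the B cell markers at 24 h was 206 to 334 in Bach2-/- cells against 391 to 712 in WT cells. Array 1 of the Bach2-/- 0 h group, labelled male, had the 4 Y-linked genes Ddx3y, Kdm5d, Uty and Eif2s3y at the floor. On array 1 of both WT groups Kdm5d was not above background either (-5.90 at 0 h and -5.65 at 24 h). There Ddx3y, Uty and Eif2s3y were above background, but lower than on arrays 2 and 3 of their group. On array 1 of the Bach2-/- 24 h group all 4 Y-linked genes were above background, and also lower than on arrays 2 and 3. Xist, also listed as a sex check, was not tested, and its 2 probes were each above background on at most 6 arrays. Array 2 of the Bach2-/- 24 h group was the dimmest, with a 75th percentile of 97.3 against 174 to 358 on the other arrays. Array 1 of each group lay on one slide and arrays 2 and 3 on another, so every group spans both slides. Some markers of other cells differed with genotype. Of 5 listed erythroid genes 3 were tested, and Epb42 was above background on 0 arrays. Their summed linear signal at 0 h was 29.2 to 91.9 in Bach2-/- cells against 7.53 to 16.0 in WT cells. At 24 h all Bach2-/- arrays lay above the WT arrays, whose range was 2.48 to 3.61. Of these 3 genes 0 passed the test at 0 h (lowest adjusted p = 0.0959, limma), and all 3 passed higher at 24 h. With the replicate number as a block 3 passed at each time. The sum of 7 tested neutrophil genes, of 8 listed, was 25.9 to 53.0 against 11.1 to 30.6 at 0 h. At 24 h it was 10.9 to 49.8 against 1.52 to 16.5. These ranges overlapped. Of the 7 genes 0 passed the test at either time, and 3 passed at each time with the block. Of 5 tested T cell and 3 tested NK cell genes 0 passed between genotypes. With the block 1 T cell gene passed at 24 h and 1 NK cell gene at each time. Of 3 tested macrophage and monocyte genes 1 was higher in Bach2-/- cells at 24 h, and of 3 tested dendritic cell genes 1 was lower. Of 4 plasma cell genes 1 passed at each time: Prdm1, a regulator of plasma cell formation, was higher in Bach2-/- cells by 3.38 at 0 h and 4.94 at 24 h (adjusted p = 0.00248 and 5.75e-05 in limma's fit), while the other 3 differed by -0.88 to 0.28 at 0 h and by -0.24 to 0.94 at 24 h. With the block 1 plasma cell gene was higher at 0 h and 2 at 24 h. Markers of B cell subsets moved as well. Of 4 follicular genes 0 passed at 0 h and 2 were lower in Bach2-/- cells at 24 h, Cr2 by -2.06 and Ccr7 by -1.64 (adjusted p = 0.000754 and 0.0117 in limma's fit). With the block 1 follicular gene was lower at 0 h and 2 at 24 h. Of 3 tested marginal zone genes S1pr3 and Cd9 were higher, by 2.61 and 1.62 at 0 h and by 1.62 and 2.95 at 24 h, and Dtx1 was lower at 24 h (-1.45). The part of these markers in the results below was not tested, and more cells of a type and more RNA per cell cannot be told apart in bulk RNA.

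Promoters are shown first for the genes whose regulation by metal is best known, the metallothioneins, and for both exporters. The RefSeq table of promoters (build GRCm38.p6) holds 250 bases before and 50 after the start of 6 of the 9 genes. Slc39a4, Slc39a6 and Slc39a14 are not among them. Capitals mark matches to the core of the metal response element, which was searched on either strand as TGCACNC and also in the form TGCGCNC, and each sequence is written 5′ to 3′ on the strand of its gene.
Mt1, chr8:94178839-94179138, plus strand: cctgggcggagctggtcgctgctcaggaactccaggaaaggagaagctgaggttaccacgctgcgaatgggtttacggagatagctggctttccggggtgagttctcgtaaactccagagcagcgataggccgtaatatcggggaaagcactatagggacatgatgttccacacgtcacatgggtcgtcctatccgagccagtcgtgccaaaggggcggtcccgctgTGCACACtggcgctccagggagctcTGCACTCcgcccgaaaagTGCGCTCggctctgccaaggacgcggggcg
Mt2, chr8:94172368-94172667, plus strand: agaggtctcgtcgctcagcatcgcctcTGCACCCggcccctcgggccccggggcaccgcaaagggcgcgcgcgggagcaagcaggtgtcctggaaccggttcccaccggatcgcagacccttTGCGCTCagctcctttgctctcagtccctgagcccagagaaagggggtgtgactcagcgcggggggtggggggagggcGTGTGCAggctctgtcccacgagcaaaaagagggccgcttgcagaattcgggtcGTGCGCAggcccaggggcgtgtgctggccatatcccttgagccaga
Slc30a1, chr1:191906531-191906830, plus strand: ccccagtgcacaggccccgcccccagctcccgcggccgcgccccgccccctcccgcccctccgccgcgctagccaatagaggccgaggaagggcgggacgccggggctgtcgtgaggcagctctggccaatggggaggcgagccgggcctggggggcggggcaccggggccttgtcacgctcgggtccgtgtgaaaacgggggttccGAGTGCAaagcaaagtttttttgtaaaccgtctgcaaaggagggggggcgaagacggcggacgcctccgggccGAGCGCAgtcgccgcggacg
Slc30a4, chr2:122702614-122702913, minus strand: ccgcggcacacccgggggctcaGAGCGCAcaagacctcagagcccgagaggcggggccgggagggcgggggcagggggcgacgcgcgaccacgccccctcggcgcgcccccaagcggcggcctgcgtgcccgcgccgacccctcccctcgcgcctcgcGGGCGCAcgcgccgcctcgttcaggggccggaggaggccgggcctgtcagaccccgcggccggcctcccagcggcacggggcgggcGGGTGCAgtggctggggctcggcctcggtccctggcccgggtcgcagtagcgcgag

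The metal response element core matched 3 times in the Mt1 window, 4 times in that of Mt2, 2 times in Slc30a1 and 3 times in Slc30a4. It matched 0 times in both starts of Slc39a10 and in Mtf1. Of all 32851 promoters of this length, 25.7% held at least 1 match and 1.97% held 3 or more. The Mt2 window alone held TGACTCAGC, a site of the BACH and NRF2 type, at positions -79 to -71 from the start; 0.454% of all promoters hold it on either strand. It contains the AP-1 core TGACTCA, searched on both strands and found in 5.20% of promoters, and is itself a match to the antioxidant response element core TGACNNNGC, found in 12.4% and matched once more in Slc30a1. TGACTCAGC was added to the search after the overlapping matches in Mt2 had been seen. A match is a run of letters in this window and not a binding site. The windows hang on the starts in the RefSeq table, and sequence beyond them on either side was not searched. The counts are therefore counts of the windows and not of whole promoters.

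**Figure D1:**
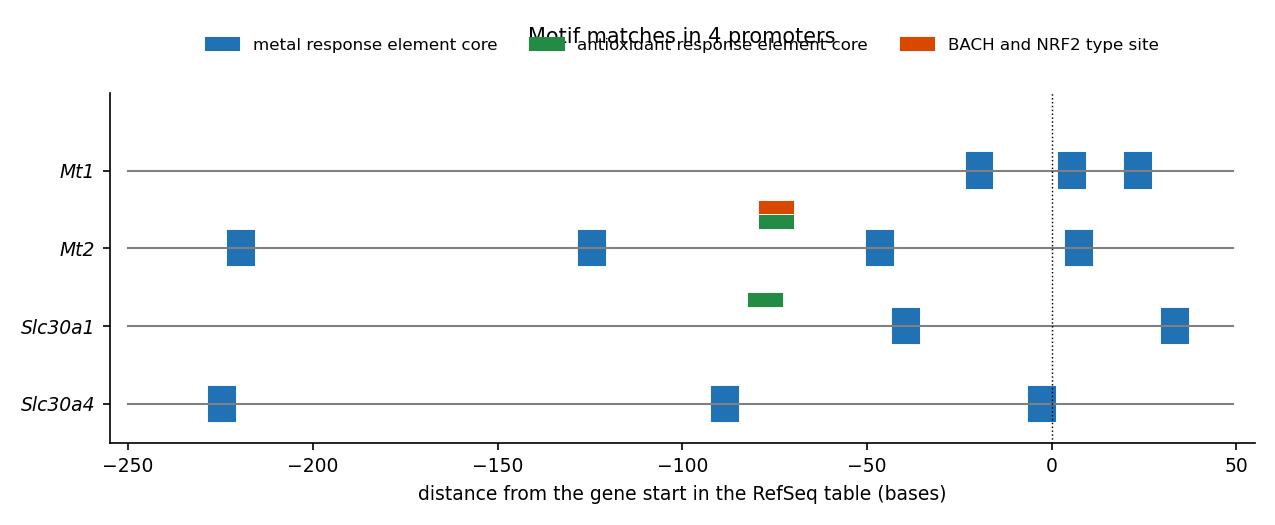
Positions of motif matches in the 4 printed promoters, by distance in bases from the gene start (dotted line). Blue boxes are metal response element cores (3 in Mt1, 4 in Mt2, 2 in Slc30a1, 3 in Slc30a4), green boxes antioxidant response element cores, and the orange box the BACH and NRF2 type site, which lies in Mt2 alone among these 4.

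Among the importers, Slc39a4 separated the genotypes at both times. The gene encodes ZIP4, best known for zinc uptake in the gut, whose loss in people causes acrodermatitis enteropathica. In WT cells at 0 h its 3 arrays read -0.43, -0.47 and -1.09. After 24 h the WT arrays read 1.94, 1.45 and 1.64. In Bach2-/- cells they read 4.84, 3.68 and 3.96 at 0 h, and 5.95, 5.15 and 5.33 at 24 h. No groups overlapped, and resting Bach2-/- cells already lay above stimulated WT cells. The Bach2-/- level was 4.82 ± 0.34 log2 units above WT (SE, adjusted p = 7.12e-05, limma), or 28.3-fold, at 0 h. At 24 h it was 3.80 ± 0.34 above (adjusted p = 0.000115, limma), or 13.9-fold. Array pairs of the same number gave 5.27, 4.15 and 5.05 at 0 h, and without the array lacking Y-linked signal the difference was 4.48 (adjusted p = 0.000245 in limma's fit).

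Slc39a4 also rose with stimulation in both genotypes. It gained 2.34 ± 0.34 in WT cells (adjusted p = 0.000773, limma) and 1.31 ± 0.34 in Bach2-/- cells (adjusted p = 0.0248, limma). The second call was lost in 4 of the 12 fits that left out an array: without Bach2-/- 0 h array 2 or 3 (adjusted p = 0.11 and 0.0987) and without Bach2-/- 24 h array 1 or 3 (adjusted p = 0.0853 and 0.057). The responses differed by -1.03 ± 0.49, which did not pass the test (adjusted p = 0.664 in limma's fit).

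Slc39a14 rose with stimulation in both genotypes. It encodes ZIP14, an importer of zinc that also carries iron and manganese and is induced in the liver by inflammation. Its WT arrays read -1.61, -1.50 and -1.42 at 0 h and 0.29, 0.11 and 0.41 at 24 h. Its Bach2-/- arrays read -0.98, -1.02 and -0.77 at 0 h and 0.38, -0.22 and 0.73 at 24 h. Arrays of 0 h and 24 h did not overlap in either genotype, while the genotypes overlapped at 24 h. The rise was 1.78 ± 0.25 in WT cells (adjusted p = 0.000602, limma) and 1.22 ± 0.25 in Bach2-/- cells (adjusted p = 0.00655, limma). The genotypes did not overlap at 0 h either, but that difference of 0.59 ± 0.25 did not pass the test (adjusted p = 0.704, limma).

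Slc39a6 and Slc39a10 passed no test in any of the 5 comparisons. They encode ZIP6 and ZIP10, importers that can pair at the plasma membrane; ZIP10 is known to support B cell survival and to set the strength of B cell receptor signals. Slc39a6 lay between 1.58 and 2.83 over the 12 arrays, and its differences ran from -0.36 to 0.41. Slc39a10 lay between -1.47 and 0.58, with differences from -0.52 to 0.64. For the stimulated rise of Slc39a10 in Bach2-/- cells, 0.64 ± 0.48, the 95% interval was -0.42 to 1.70. For both genes the arrays overlapped in the 4 comparisons of groups, and in each group array 1 was the highest.

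The exporter Slc30a1 was lower after stimulation in both genotypes, where Mt1 and Slc39a4 rose. It encodes ZnT1, the zinc exporter of the plasma membrane and a known target of MTF1. WT arrays read 0.56, 0.32 and 0.52 at 0 h and -0.27, -0.30 and -0.13 at 24 h. Bach2-/- arrays read 0.20, 0.15 and 0.04 at 0 h and -0.85, -0.84 and -0.39 at 24 h. No groups overlapped in these 4 comparisons, though the gap between the genotypes was 0.12 at 0 h and 0.09 at 24 h. The change was -0.70 ± 0.20 in WT cells (adjusted p = 0.0305, limma) and -0.82 ± 0.20 in Bach2-/- cells (adjusted p = 0.019, limma). Both calls were fragile: the WT call was lost in 11 of 25 alternatives (adjusted p of 0.0509 to 0.104) and the Bach2-/- call in 8 of 25 (0.0541 to 0.129). The arrays whose removal ended a call were all 6 WT arrays and Bach2-/- 0 h array 3 for WT, and the 3 Bach2-/- 0 h arrays and Bach2-/- 24 h array 1 for Bach2-/-. The genotype differences of -0.34 ± 0.20 and -0.46 ± 0.20 did not pass (adjusted p = 1 and 0.361, limma).

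Slc30a4 encodes ZnT4, which loads zinc into vesicles and into milk in the mouse. It read between 2.03 and 3.15 on the 12 arrays, its groups overlapped in every comparison, and no difference passed the test. Its promoter window holds 3 metal response element cores, as many as the window of Mt1, and sequence beyond these windows was not searched. The largest of its differences was 0.44 ± 0.31 between genotypes at 0 h (95% interval -0.25 to 1.13).

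Mt1 was higher in Bach2-/- cells and rose with stimulation in both genotypes, and its reported probe ran from -2.04 to 6.96, the widest range of the 9 genes. WT arrays read -1.14, -1.59 and -2.04 at 0 h and 3.62, 3.65 and 2.79 at 24 h. Bach2-/- arrays read 1.05, 0.09 and 0.25 at 0 h and 6.96, 5.80 and 6.89 at 24 h. From low to high, the groups took the order WT 0 h, Bach2-/- 0 h, WT 24 h and Bach2-/- 24 h with no overlap between neighbours. Between 0 h and 24 h Mt1 rose by 4.95 ± 0.41 in WT cells (adjusted p = 1.8e-05, limma), or 30.9-fold. In Bach2-/- cells it rose by 6.09 ± 0.41 (adjusted p = 2.62e-06, limma), or 68.1-fold.

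Stimulated Bach2-/- cells held 9.16-fold more Mt1 signal than stimulated WT cells, a difference of 3.20 ± 0.41 (adjusted p = 0.00111, limma). At 0 h the difference was 2.05 ± 0.41 and only just passed (adjusted p = 0.0489, limma). That call was lost in 18 of 25 alternatives (adjusted p of 0.0517 to 0.269), among them 11 of the 12 fits without an array; it held without Bach2-/- 24 h array 2. Its size was 1.76 without the array lacking Y-linked signal (adjusted p = 0.205 in limma's fit), and 1.99 and 2.19 on the separate slides. Same-numbered arrays gave 2.19, 1.68 and 2.29, higher in 3 of 3. The responses of the genotypes differed by 1.14 ± 0.57, which did not pass (adjusted p = 0.699, limma).

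Mt2 was higher in Bach2-/- cells after stimulation and passed no test between resting cells. WT arrays read -2.09, -0.76 and -0.36 at 0 h and -0.45, 0.49 and 0.09 at 24 h. Bach2-/- arrays read -1.70, -0.37 and -0.48 at 0 h and 3.40, 2.26 and 3.44 at 24 h. Only stimulated Bach2-/- cells stood apart, since the other 3 groups overlapped, and array 1 was the lowest in each of those 3. At 0 h the genotypes differed by 0.22 ± 0.52 (adjusted p = 1, limma; 95% interval -0.93 to 1.37), and by 0.64 without the Bach2-/- array lacking Y-linked signal (adjusted p = 1, limma). At 24 h Bach2-/- cells were higher by 2.99 ± 0.52 (adjusted p = 0.00916, limma), or 7.95-fold.

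The rise of Mt2 was 3.89 ± 0.52 in Bach2-/- cells (adjusted p = 0.000388, limma). In WT cells it was 1.11 ± 0.52, which did not pass (adjusted p = 0.162, limma). It passed narrowly with the slide as a block (adjusted p = 0.0488, limma) and not with the replicate number as a block (0.0541). Same-numbered WT arrays gave rises of 1.64, 1.26 and 0.45. The difference between these responses was 2.77 ± 0.74 and did not pass over all genes (adjusted p = 0.237, limma). With the replicate number as a block the same difference passed (adjusted p = 0.036, limma), as it did with the slide as a block (adjusted p = 0.0325, limma). Same-numbered arrays gave 3.46, 1.38 and 3.48, higher in 3 of 3.

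Mtf1 passed no test in any of the 5 comparisons. Its reported probe read 1.13, 0.65 and 1.06 in WT cells at 0 h and 1.19, 0.83 and 1.03 at 24 h. In Bach2-/- cells it read 0.87, 0.69 and 0.77 at 0 h and 1.11, 0.39 and 1.05 at 24 h. All 4 comparisons of groups overlapped, and the differences were between -0.17 and 0.07, each ± 0.25. The 95% interval of the response in Bach2-/- cells was -0.48 to 0.62. A second Mtf1 probe, read separately, gave differences of -0.15 to 0.22, and the one remaining probe was above background on 0 arrays.

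**Figure D2:**
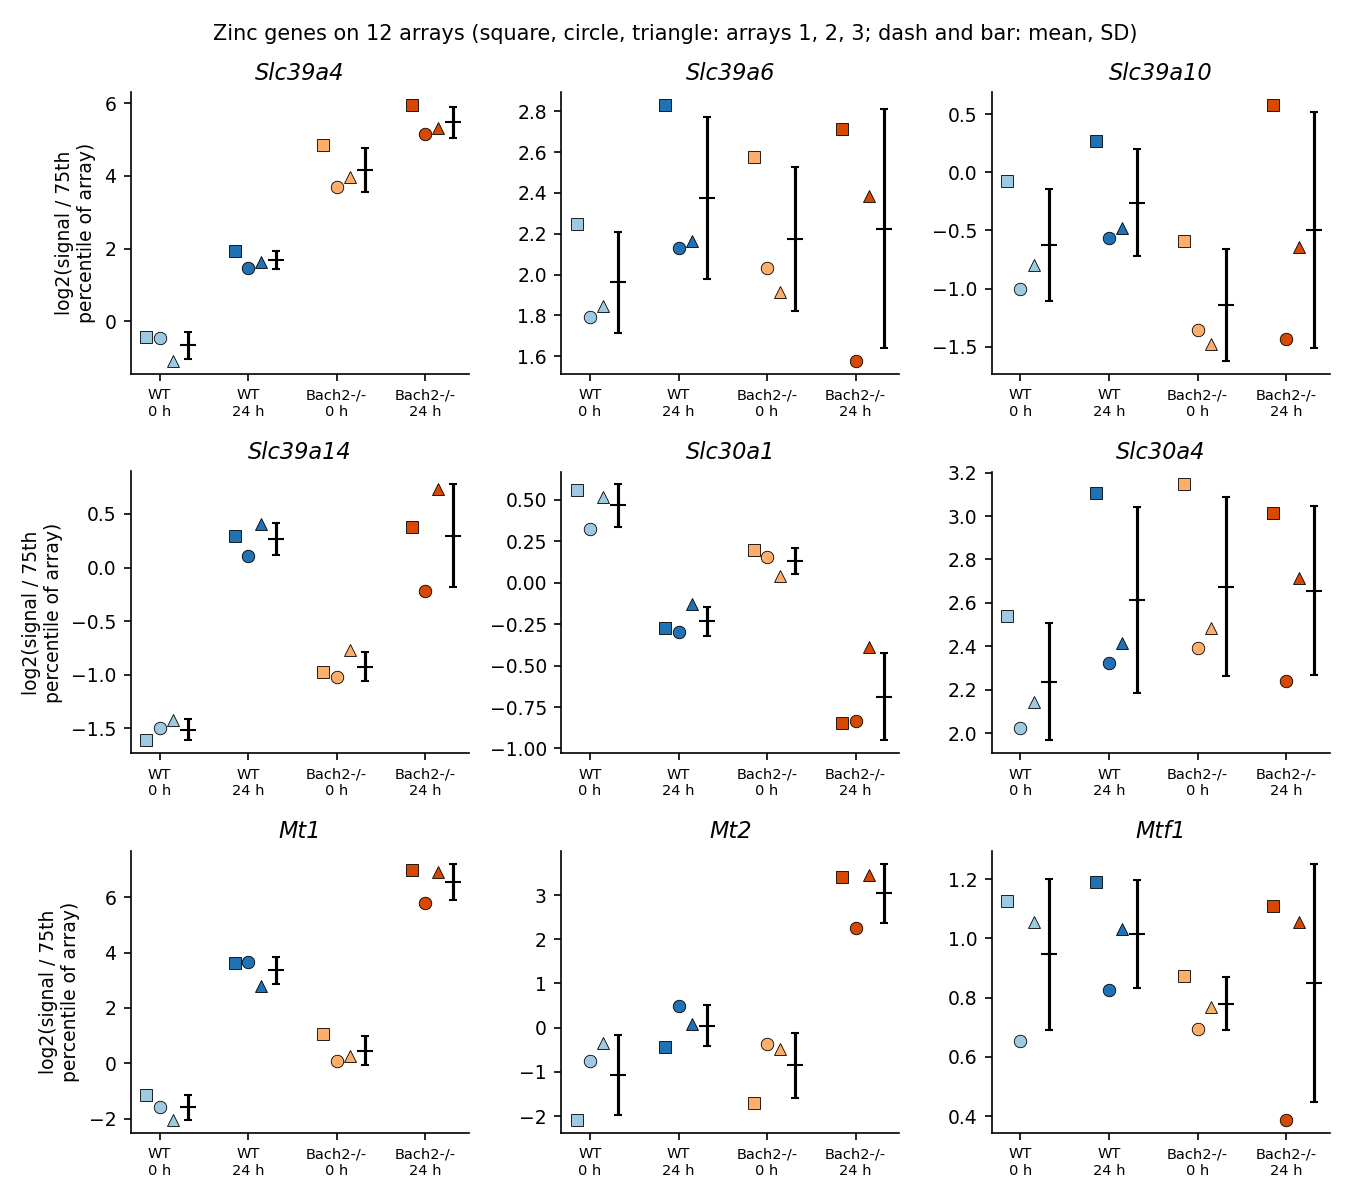
Level of each of the 9 genes (log2 of signal over the array's 75th percentile, own scale per panel) on the 12 arrays by group; squares, circles and triangles are arrays 1, 2 and 3, and the dash and bar are the mean and SD of 3 arrays. Slc39a4 and Mt1 separate all 4 groups, Mt2 separates stimulated Bach2-/- cells, and Mtf1 stays between 0.39 and 1.19.

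Counted over the 9 genes, 2 passed the test between genotypes at 0 h, where 0.747% of all genes did, and 3 passed at 24 h, against 3.22%. With stimulation 4 passed in WT cells (3 higher, 1 lower), against 21.9% of all genes, and 5 in Bach2-/- cells (4 higher, 1 lower), against 14.0%. For the difference between responses 0 of 9 passed in limma's fit, against 0.360% of all genes; at an unadjusted p under 0.05, 1778 of the 22751 genes (7.82%) did, and of the 9 genes 1, Mt2. Groups did not overlap for 4, 4, 4 and 5 of the 9 genes in the first 4 comparisons, against 12.7%, 16.4%, 39.2% and 25.9% of all genes with a value on every array compared. The median difference of the 9 genes was 0.22, 0.03, 0.41, 0.64 and -0.12 in the 5 comparisons, beside 0.03, -0.06, 0.04, 0.07 and -0.09 over all genes. Since the genes were chosen with such values known, nothing is read from these shares.

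Without the Bach2-/- 0 h array lacking Y-linked signal, the response of Bach2-/- cells was 1.65 for Slc39a4, 1.19 for Slc39a14, 6.38 for Mt1 and 3.46 for Mt2, which all passed (adjusted p = 0.00722, 0.0242, 9.6e-06 and 0.00175, limma), and -0.79 for Slc30a1, which did not (adjusted p = 0.061, limma). Without that array and the dimmest one, the genotype difference at 24 h was 3.96 for Slc39a4, 3.57 for Mt1 and 3.38 for Mt2 (adjusted p = 0.000258, 0.00081 and 0.00662, limma).

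With the replicate number as a block, more genes passed in each comparison over all genes. The share of all genes rose to 3.74% at 0 h and 19.7% at 24 h between genotypes, 47.2% and 33.9% for the responses of WT and Bach2-/- cells, and 5.09% for the difference between responses. Of the 9 genes, 2, 3, 5, 5 and 1 passed. The gene added to the WT response was Slc30a4 (0.38, adjusted p = 0.0456 with the block in limma's fit), and the gene added to the difference between responses was Mt2. Mt1 at 0 h passed with the block as well (adjusted p = 0.00546 in limma's fit).

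**Figure D3:**
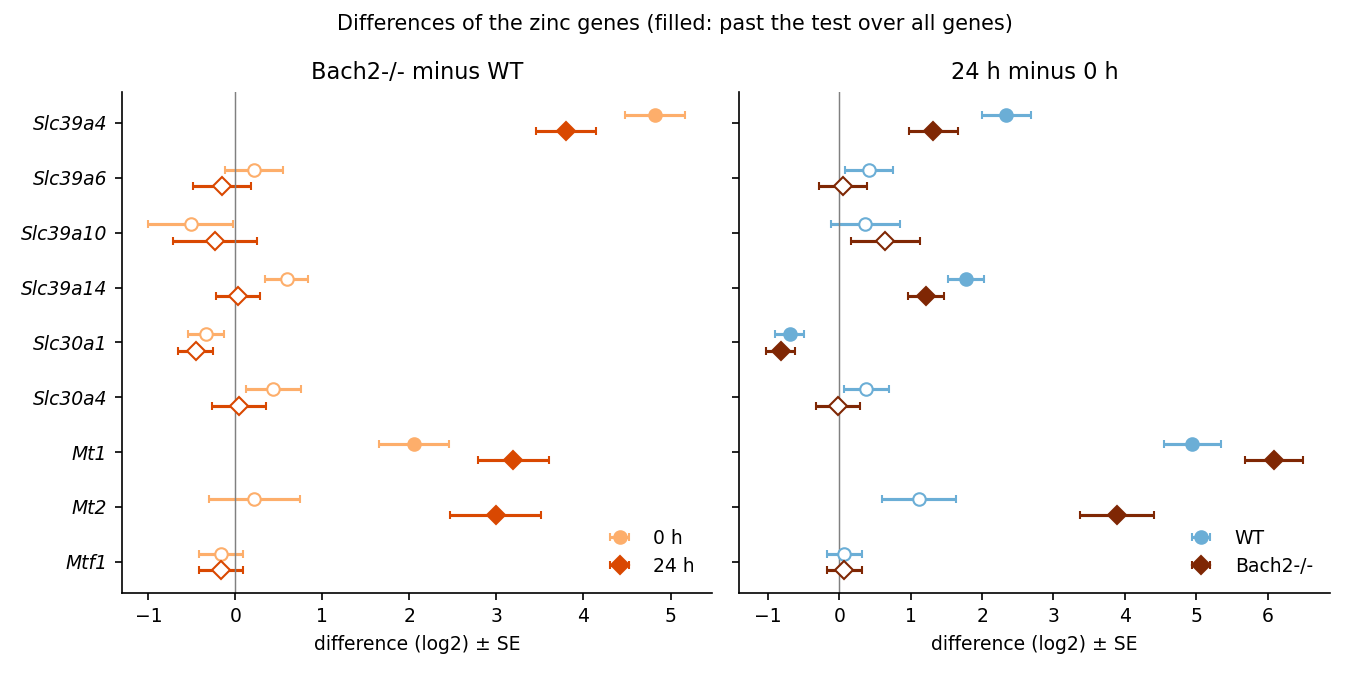
Differences (log2) with their standard errors for the 9 genes: Bach2-/- minus WT at 0 h and 24 h on the left, 24 h minus 0 h in WT and Bach2-/- cells on the right. Filled points passed the test over all genes; Slc39a4 (4.82 and 3.80) and Mt1 (2.05 and 3.20) differ between genotypes at both times, Mt2 at 24 h.

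The rest of the 3 families has 20 genes, of which 15 could be tested. Slc39a5, Slc39a12, Slc30a3, Slc30a8 and Slc30a10 were too dim. None of the 15 passed between genotypes at either time in limma's fit, nor for the difference between responses; at an unadjusted p under 0.05, 1, 2 and 1 did, against 6.44%, 13.4% and 7.82% of all genes. With the replicate block 3 passed between genotypes at 24 h (Slc39a3, Slc30a2 and Mt4), where 19.7% of all genes did. In WT cells Slc39a11 rose from 0 h to 24 h by 1.85 ± 0.36 (adjusted p = 0.0039, limma) and Slc30a2 by 1.15 ± 0.30 (adjusted p = 0.0176, limma). Slc39a11 encodes ZIP11, an importer found in internal membranes, and Slc30a2 encodes ZnT2, which fills secretory vesicles with zinc. The Slc39a11 arrays read 1.79, 1.64 and 1.16 in WT cells at 0 h and 3.84, 3.06 and 3.23 at 24 h, and did not overlap.

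In Bach2-/- cells Slc39a8 rose by 1.23 ± 0.34 (adjusted p = 0.0351, limma) and Slc39a3 changed by -1.0 ± 0.29 (adjusted p = 0.0403, limma). Slc39a8 encodes ZIP8, an importer of zinc and manganese, and Slc39a3 encodes ZIP3, an importer of the plasma membrane. The Slc39a8 call was lost in 12 of 25 alternatives, among them the fits without WT 24 h array 2 or 3, any Bach2-/- 0 h array, or Bach2-/- 24 h array 1 or 3. The Slc39a3 call was lost in 14, among them all fits without an array except WT 0 h array 1, WT 24 h array 1 and Bach2-/- 24 h array 1. The Slc30a2 call in WT cells was lost in 6, among them the fits without WT 0 h array 1 or 3 or WT 24 h array 1. Slc39a8 was above background on 10 of 12 arrays. The other metallothioneins Mt3 and Mt4 passed no test without the block. Mt3 differed by -0.45 and -0.54 with stimulation in WT and Bach2-/- cells, and with the replicate block both differences passed (adjusted p = 0.0431 and 0.0278, limma). Mt4 differed by 0.83 and 0.89, which also passed with the block (adjusted p = 0.000722 and 0.000699, limma). In all, 7 of the 15 genes passed for WT stimulation with the block and 5 for Bach2-/- stimulation. Over all genes the shares with the block were 47.2% and 33.9%, so nothing particular to these 15 genes is read from the counts.

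**Figure D4:**
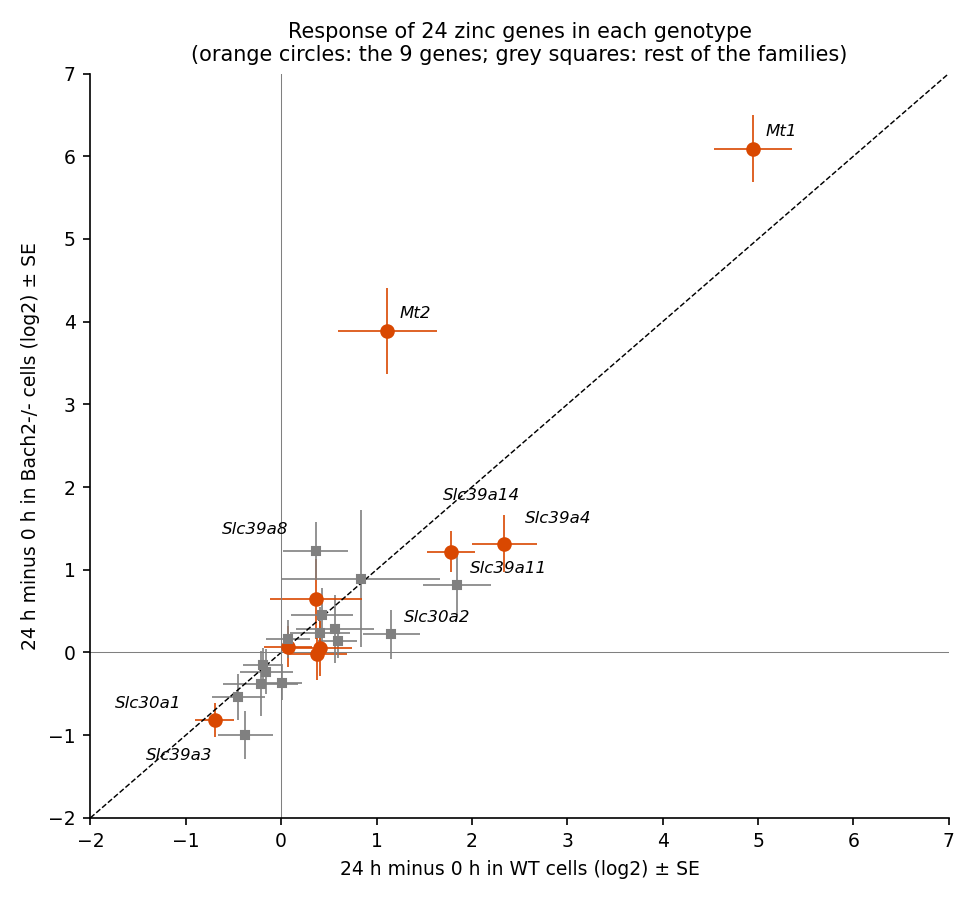
Change from 0 h to 24 h (log2 ± SE) in WT cells (horizontal) against Bach2-/- cells (vertical) for the 24 tested zinc genes; the dashed line is equal change. Mt1 (4.95 and 6.09) and Mt2 (1.11 and 3.89) lie above the line, with response differences that did not pass the test without a block. That of Mt2 passed with the replicate or the slide as a block (adjusted p = 0.036 and 0.0325, limma). Most other genes lie near 0 on both axes.

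Of 5 genes outside the families that are reported to answer to MTF1, 0 passed between genotypes at either time in limma's fit; at an unadjusted p under 0.05, 0 did at 0 h and 2 at 24 h, against 6.44% and 13.4% of all genes. With the replicate block Gclc passed at 24 h (0.55, adjusted p = 0.0221, limma), where 19.7% of all genes did. With stimulation Gclc, which makes the first intermediate of glutathione, rose by 1.60 ± 0.24 in WT and 1.91 ± 0.24 in Bach2-/- cells (adjusted p = 0.000912 and 0.000248, limma). Ndrg1, a stress-induced gene, rose by 1.29 ± 0.34 and 2.12 ± 0.34 (adjusted p = 0.0204 and 0.00143, limma). Csrp1, Selenoh and Slc40a1 passed in neither genotype. Thus 2 of 5 passed in each, against 21.9% of all genes in WT and 14.0% in Bach2-/- cells. Of 6 tested copper genes 1 passed, the copper importer Slc31a1, which rose by 1.63 ± 0.28 in WT cells (adjusted p = 0.00188, limma). Of all genes 21.9% passed in that comparison. With the replicate block 2 copper genes, Slc31a1 and Slc31a2, passed lower at 24 h between genotypes. With stimulation 2 passed higher in WT cells, and 1 higher and 1 lower in Bach2-/- cells. For the difference between responses 1 passed, Slc31a1 (-1.09, adjusted p = 0.0477, limma). The shares of all genes with the block were 19.7%, 47.2%, 33.9% and 5.09% in these comparisons.

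The genes whose levels ran closest to each of these over the 12 arrays were named by Pearson's r, a description over arrays that share 4 groups and 2 slides. For Slc39a4 they were Smco4 (r = 0.981), Spn (0.978) and Lilrb4a, an inhibitory receptor of myeloid cells (0.978). Lilrb4a went from a mean of -2.40 in resting WT cells to 4.78 in resting Bach2-/- cells. For Mt1 they were the arginine transporter Slc7a3 (0.994), the glutathione-degrading enzyme Chac1 (0.993) and Slc15a3 (0.990). The mean of Slc7a3 was -6.24 in WT cells at 0 h, close to the floor, and -4.69 in Bach2-/- cells at 0 h. For Mt2 they were the AP-1 subunit Fosl1 (0.981), 6430548M08Rik (0.979) and Madcam1 (0.960). Fosl1 was dim outside stimulated Bach2-/- cells, with group means of -4.85 to -3.43. For Slc39a14 they were the transcription factor Tfe3 (0.982), Efhd2 (0.981) and thioredoxin, Txn1 (0.979). Zfp354c (0.980), Dock8 (0.969) and Rnf169 (0.966) ran with Slc30a1. For the genes that passed nothing, the first named were Larp1b with Slc39a6 (0.982), Ndst2 with Slc39a10 (0.977), Agpat3 with Slc30a4 (0.987) and Rdh10 with Mtf1 (0.937).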

How the data were processed

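Cy3-labelled RNA of 12 samples was measured on 1-colour arrays. The submitters' processing notes name Agilent Feature Extraction 10.7.3.1. The deposited scanner files give each spot's processed signal as a linear intensity. The deposited table holds log2 values; against the scanner values, centred per probe, its columns correlated with r of 0.9979 to 0.99963, with column medians of -0.271 to 0.495, so its scale is log2 and it is centred per probe, while no label or header says how the authors centred it.

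Here the processed intensity was divided by the array's 75th percentile over noncontrol spots, floored at 0.01 and put on the log2 scale; spots flagged as outliers were left out (643 probe values had no usable spot, none of these 9 genes). Probes well above background on all 3 arrays of a group were kept (30751 probes), the brightest standing for its gene. limma 3.58.1 in R 4.3.3 fitted 4 group means on 12 arrays, with Benjamini-Hochberg adjustment over 22751 genes, threshold 0.05, 2-sided. On data simulated with the spread of these arrays, the fit was tested for recovery of known changes between genotypes at 0 h. The simulated errors were independent, unlike those of these arrays, so nothing about the calls here is read from it. An exact permutation test of 3 against 3 arrays cannot go below p = 0.1.

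Samples were grouped by their titles. Same-numbered samples deviated together from their group means (r of 0.467 to 0.89 in 18 pairs), but every such pair also shared a slide. On slide 1, which held arrays of more than 1 number, same-numbered arrays gave 0.467 to 0.752. Arrays of other numbers on that slide gave 0.246 to 0.643. Because these ranges overlapped, pairing by number was not established apart from the slide. The main fit therefore had no block, and fits with the replicate number or the slide as a block are given as alternatives. The genes and lists were chosen with earlier results of these data known. All 9 genes are named, with other zinc genes that passed a test and the 3 genes nearest to each by Pearson's r. Alternatives were other background corrections (normexp with offset 50, on the median signal because no mean signal is in the scanner files, although the mean had been planned), normalizations, filters, probes, blocks, slides, samples and the deposited table. The number of arrays limits the precision.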

Additional observations from a re-analysis of the deposited data

How the results depend on the processing

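Each value was recomputed under 25 alternatives, 12 of which left out an array; keeping spots flagged as outliers was chosen after seeing the data. Of the zinc genes' results that had passed, 0 of 448 recomputed values changed sign; of those that had not passed, 153 of 2542 did, all of them still not past the test. Of the 24 tested zinc genes, 2 passed between genotypes at 0 h, and 1 under normexp correction, no filter, a filter on all 12 arrays, slide 1 alone, a fit of the compared groups only, the deposited table, and without both doubted arrays; leaving out arrays gave 1 to 2. At 24 h 3 passed, 6 with the replicate block and 5 with the slide block (3 to 4 without an array). For WT stimulation 6 passed, 12 with the replicate block and 11 with the slide block (4 to 7). For Bach2-/- stimulation 7 passed, 10 with the replicate block, 4 under normexp and 2 with the compared groups only (3 to 7). For the difference between responses 0 passed, and 1, Mt2, with either block (0 to 0). Where the replicate block changed the call of one of the 9 genes, its value stands in the report. Normexp correction also lowered the 0 h difference of Mt1 to 1.49. With no filter the median of all genes shifted to 0.13 at 24 h between genotypes and 0.22 for Bach2-/- stimulation. The cause of these changes was not tested.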
